A study of Rattus norvegicus with 18 samples.

Results

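Described here are 10 genes of prostaglandin and leukotriene synthesis, chosen by gene symbol from the 30735 genes of a count table of rat cerebral cortex. They are Pla2g4a, Ptgs1, Ptgs2, Ptges, Ptges2, Ptges3, Tbxas1, Alox5, Alox5ap and Ltc4s. They were picked for their roles in the pathway, with earlier results of these data known. RNA was sequenced from 18 adult Sprague Dawley rats, with 1 library per rat. Sham, SAH 1d and SAH 7d, the groups compared, had 6 rats each. SAH stands for subarachnoid hemorrhage, bleeding into the fluid space around the brain, which was produced by pushing a filament through the wall of a cerebral artery from inside the vessel. The SAH 1d and SAH 7d rats were sampled 1 and 7 days after this bleeding, and the sham rats had the same neck surgery and anesthesia without the perforation. Neither the day on which sham tissue was taken nor the sex of the rats is stated. No allele or drug distinguished the groups. The study's methods name the whole cortex on the operated side, rinsed free of visible blood, whereas the descriptions deposited with the libraries name the cortex of both sides and mice. All gene identifiers in the table are rat ones.

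Eicosanoids are short-lived lipid signals made from arachidonic acid. Cytosolic phospholipase A2, encoded by Pla2g4a, cuts this fatty acid out of membrane lipids, and it then enters either of a pair of branches. In the cyclooxygenase branch, Ptgs1 and Ptgs2 encode the enzymes COX-1 and COX-2, which make prostaglandin H2. Terminal enzymes turn that product into prostaglandin E2, a mediator of fever, pain and vessel dilation, or into thromboxane A2, which constricts vessels and activates platelets. In the lipoxygenase branch, 5-lipoxygenase (Alox5) and its helper protein FLAP (Alox5ap) make leukotriene A4, and leukotriene C4 synthase (Ltc4s) joins it to glutathione to give the cysteinyl leukotrienes, which make vessels leaky. In brain, COX-2 is known as an enzyme of excitatory neurons that activity and injury induce, whereas COX-1, thromboxane synthase and the 5-lipoxygenase proteins are best known from microglia and blood-borne white cells.

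Promoter sequence was available for 8 of the 10 genes, all but Ptges2 and Alox5ap. The 250 bases before the annotated start are shown for 4 genes on which the results turn, the release enzyme Pla2g4a, the inducible enzymes Ptgs2 and Ptges, and Ltc4s, which moved the other way. They come from RefSeq, build GRCr8, and are written 5′ to 3′ on the strand of the gene. The Pla2g4a window lies at chr13:64572353-64572602 on the minus strand, the Ptgs2 window at chr13:64713813-64714062 on the plus strand, the Ptges window at chr3:34586988-34587237 on the minus strand and the Ltc4s window at chr10:35063595-35063844 on the minus strand. Capitals mark matches to the motifs named below.
Pla2g4a: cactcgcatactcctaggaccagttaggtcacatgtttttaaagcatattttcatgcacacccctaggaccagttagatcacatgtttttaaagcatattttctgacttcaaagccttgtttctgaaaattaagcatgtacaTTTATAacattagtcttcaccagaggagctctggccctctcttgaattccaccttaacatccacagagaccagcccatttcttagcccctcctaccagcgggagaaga
Ptgs2: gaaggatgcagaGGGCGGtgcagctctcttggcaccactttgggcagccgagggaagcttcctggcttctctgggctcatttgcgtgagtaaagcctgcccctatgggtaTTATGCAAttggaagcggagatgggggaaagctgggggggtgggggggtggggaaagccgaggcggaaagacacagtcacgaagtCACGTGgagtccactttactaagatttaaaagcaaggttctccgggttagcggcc
Ptges: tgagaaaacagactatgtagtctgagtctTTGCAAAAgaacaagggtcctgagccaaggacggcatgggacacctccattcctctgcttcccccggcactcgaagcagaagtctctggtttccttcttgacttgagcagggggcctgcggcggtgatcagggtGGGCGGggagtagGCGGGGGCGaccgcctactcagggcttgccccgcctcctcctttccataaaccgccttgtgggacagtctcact
Ltc4s: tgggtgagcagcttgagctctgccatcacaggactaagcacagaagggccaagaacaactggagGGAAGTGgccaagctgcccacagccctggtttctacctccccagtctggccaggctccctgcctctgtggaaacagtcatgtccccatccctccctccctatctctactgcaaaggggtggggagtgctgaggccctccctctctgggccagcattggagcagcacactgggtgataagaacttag
The motifs were chosen after the Ptgs2 and Ptges windows had been read, and both strands were searched. In the Ptgs2 window the E-box CACGTG began 55 bases before the start, a C/EBP-type TTNNGCAA 140 bases before it and a GC box GGGCGG 238 bases before it. In the Ptges window the EGR1 motif GCGNGGGCG began 74 bases before the start, a GC box 87 bases before it and a C/EBP-type match on the minus strand 221 bases before it. The Pla2g4a window held a TATAAA match on the minus strand, and the Ltc4s window held an ETS core GGAAGTG. Of 33469 promoter windows of this length, 5.59% held the E-box, 9.22% the C/EBP-type motif, 30.5% the GC box, 4.29% the EGR1 motif, 12.9% TATAAA and 8.25% the ETS core. An AP-1 match, TGANTCA, stood 102 bases before the start of Tbxas1 and is in 6.34% of windows. The CRE half-site CGTCA, in 18.2% of windows, was found in the Ptges3 window alone among the 8, and the NF-kB motif, in 3.54%, in that of Alox5 alone. The Ptgs1 window held none of the motifs. A match describes these letters and no more. Pla2g4a and Ptgs2, which act one after the other in the pathway, are also neighbouring coding genes on chromosome 13 in the RefSeq gene table.

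Total counts ran from 27270026 to 38271014 per library. Genes were tested with edgeR on the counts, and all 10 were among the 18444 genes that passed the filter on low counts. Fold changes are on the log2 scale with their standard error (SE), adjusted p-values are Benjamini-Hochberg values over all 18444 genes, a gene was called at an adjusted p under 0.05, and a called gene whose log2 fold change reached 1 in either direction is termed a DEG. CPM are normalized counts scaled to a library of 1000000, used for 1 gene between rats, and FPKM are length-scaled values, used to compare levels of different genes. A pair of libraries stood apart before any of these genes was considered. The median Spearman correlation of a library with the others of its group was 0.939 for SAH 1d-3 and 0.925 for SAH 7d-5, against 0.961 to 0.964 for the other 16. Results that rest on either are given with and without it. In bulk tissue, fewer cells of a type and less RNA per cell cannot be told apart. All 6 neuronal and all 6 cortical markers of the lists were detected and tested, as the label cerebral cortex asks for. The summed CPM of the neuronal list was 5454 to 8733 in sham, 4496 to 5466 in SAH 1d and 2127 to 7877 in SAH 7d, with the lowest value in SAH 7d-5.

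At SAH 1d, transcripts of the release gene Pla2g4a and of the inducible genes Ptgs2 and Ptges were raised, and that of Ltc4s was lowered. Of 16 other tested genes of arachidonate release, 1 was called higher, 1 lower and 14 were not called. Of the 10 genes, 7 were called between SAH 1d and sham, 6 higher and 1 lower, where 25.4% of all tested genes were called, 14.9% higher and 10.5% lower. Pla2g4a, Ptgs2, Ptges, Tbxas1 and Alox5ap were DEGs with higher values, and Ltc4s was a DEG with lower values, against 6.64% of all genes, 5.57% higher and 1.06% lower. Ptges3 rose by less than the DEG threshold. Ptgs1, Ptges2 and Alox5 were not called. For 6 genes, the 6 that rose, every SAH 1d rat lay above every sham rat, which held in that direction for 7.89% of all genes and in either direction for 13.3%. The median log2 fold change of the 10 was 0.80, beside 0.01 over all tested genes. The study itself lists Pla2g4a, Ptgs2, Ptges, Tbxas1 and Ltc4s as differential genes of arachidonic acid metabolism in these rats. The 10 were chosen with earlier results of these data known, so these shares describe them and test nothing.

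**Figure D1:**
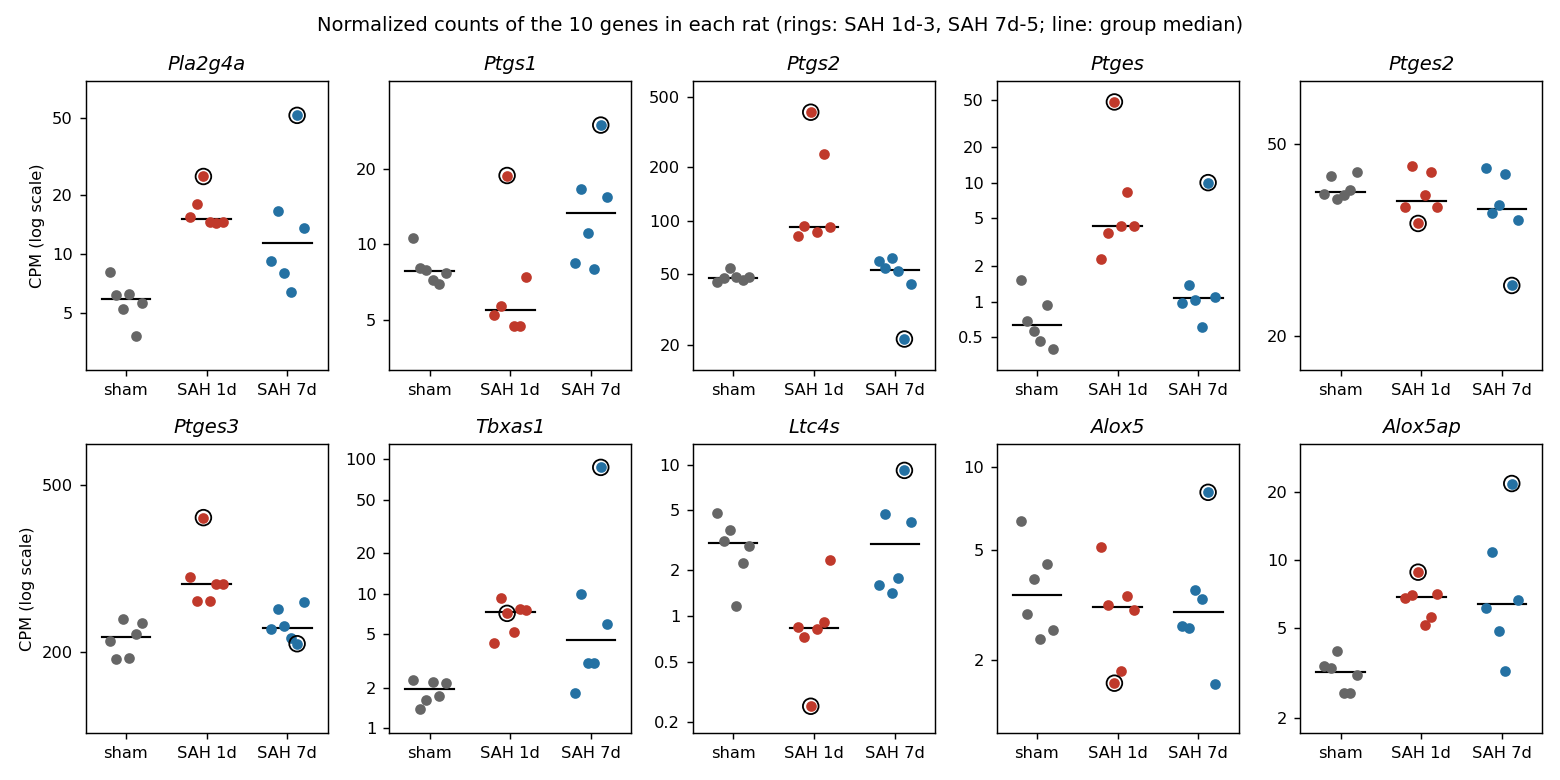
Each panel plots 1 gene on its own log axis of normalized counts (CPM), with 1 point per rat, grey for sham, red for SAH 1d and blue for SAH 7d. Black lines are group medians, and rings mark the libraries that stood apart. For Ptgs2 and Ptges3 the red points clear both other groups, whereas for Ltc4s 5 of 6 red points lie below all grey points.

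Release of arachidonic acid comes first. Pla2g4a had 3.80 CPM in the lowest sham rat, a median of 5.88 and 8.13 in the highest. In SAH 1d it ran from 14.4 over a median of 15.05 to 25.01 CPM, and in SAH 7d from 6.40 over 11.4 to 51.5 CPM. All SAH 1d rats exceeded all sham rats, and 5 of them lay close together between 14.4 and 18.01 CPM. The SAH 1d group was 2.90-fold higher, with a log2 fold change of 1.54 (SE 0.19, adjusted p = 0.000170). Without SAH 1d-3 it was 1.39 (adjusted p = 4.67e-05). In SAH 7d the gene overlapped sham, and 4 of 6 rats still exceeded every sham rat.

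The cyclooxygenases went different ways. Ptgs2, the inducible COX-2 gene, was tightly grouped in sham, with 44.9 CPM in the lowest rat, a median of 47.8 and 54.3 in the highest. In SAH 1d the lowest rat had 82.4 CPM, the median was 92.8 and the highest rat had 410.2. A group of 4 SAH 1d rats formed a narrow band up to 93.9 CPM, and SAH 1d-5 with 237.8 and SAH 1d-3 with 410.2 stood above it. The log2 fold change was 1.79 (SE 0.38, adjusted p = 0.00556), and 1.29 (adjusted p = 0.00182) without SAH 1d-3. By SAH 7d the range was 21.5 to 61.3 CPM with a median of 52.9, so that no SAH 7d rat reached the lowest SAH 1d rat. The lowest Ptgs2 value of all 18 rats was that of SAH 7d-5, which also had the lowest neuronal sum.

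Ptgs1, the COX-1 gene that many tissues express without a stimulus, did not rise with Ptgs2. Its sham range was 6.95 to 10.7 CPM with a median of 7.81. In SAH 1d the median was 5.47 CPM, 5 rats lay between 4.72 and 7.42, and SAH 1d-3 alone had 18.9. Over all 12 rats the log2 fold change was -0.05 (SE 0.32, adjusted p = 0.928). Without SAH 1d-3 it was -0.54 (SE 0.15, adjusted p = 0.0170), so 1 library decided whether Ptgs1 was called lower. In that library the summed CPM of 7 monocyte and macrophage markers was 181, against 59.6 to 82.4 in the other SAH 1d rats, and that of 10 neutrophil markers was 184, against 29.8 to 87.0. Their part in the Ptgs1 value was not tested. In SAH 7d, Ptgs1 ran from 7.97 over a median of 13.3 to 30.0 CPM, and 4 of 6 rats exceeded every sham rat.

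The ratio of Ptgs2 to Ptgs1 within each rat sets the enzymes side by side per length. From FPKM values it was 2.70 in the lowest sham rat, 4.16 at the median and 4.40 in the highest. In SAH 1d it was 7.93, 11.2 and 32.4 in the same order, and all 6 rats lay above every sham and every SAH 7d rat. In SAH 7d it was 0.458, 2.80 and 4.51, with the lowest value in SAH 7d-5. No test was run on these ratios.

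Of the prostaglandin E2 synthases, Ptges showed the largest rise of the 10 genes. It encodes the microsomal synthase that is induced together with COX-2 in inflammation. In sham it had few reads, with 0.396 CPM in the lowest rat, a median of 0.630 and 1.53 in the highest, from as few as 12 counts in a library. In SAH 1d the lowest rat had 2.29 CPM, the median was 4.33 and SAH 1d-3 had 47.8. The rats with the most Ptgs2, SAH 1d-3 and SAH 1d-5, also had the most Ptges. The log2 fold change was 3.96 (SE 0.78, adjusted p = 0.00354), which is 15.5-fold. Without SAH 1d-3 it was 2.59 (SE 0.38, adjusted p = 0.000336), and the remaining 5 rats still exceeded every sham rat. At SAH 7d, 5 rats lay between 0.616 and 1.37 CPM, within the sham range, and SAH 7d-5 had 10.01.

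The other members of this step are expressed at far higher levels, and their fold changes at SAH 1d were smaller than that of Ptges. Ptges2, a membrane-associated synthase, had 38.5 to 43.7 CPM in sham, 34.2 to 45.0 in SAH 1d and 25.4 to 44.6 in SAH 7d. Its log2 fold change between SAH 1d and sham was -0.04 (SE 0.08, adjusted p = 0.717), and the groups overlapped. Ptges3 encodes the cytosolic synthase, which is also p23, a co-chaperone of the heat shock protein Hsp90. It ran from 192.6 to 240.2 CPM in sham, from 264.1 to 418.3 in SAH 1d and from 209.4 to 263.7 in SAH 7d. SAH 1d lay above both other groups without overlap, and the rise over sham was 0.50 (SE 0.11, adjusted p = 0.00790), or 0.39 (adjusted p = 0.00200) without SAH 1d-3. The RefSeq gene table also lists a Ptges3 pseudogene and related genes, and how reads shared with them were counted is not stated, so the Ptges3 level is uncertain to that extent.

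Tbxas1, thromboxane synthase, rose at SAH 1d with little scatter. The sham rats had 1.38 to 2.27 CPM with a median of 1.95. The SAH 1d rats had 4.31 to 9.35 CPM with a median of 7.35, all above sham, and SAH 1d-3 was not extreme here with 7.15. The log2 fold change was 1.85 (SE 0.21, adjusted p = 8.79e-05), and leaving out SAH 1d-3 gave 1.84. When all 18 libraries shared 1 fit, the same difference of 1.85 had an adjusted p of 0.1003 and was not called. In SAH 7d the lowest rat had 1.81 CPM, the median was 4.53, the next to highest had 9.98 and SAH 7d-5 had 87.2. Thromboxane synthase is also a platelet enzyme, and platelet marker sums were 2.85 to 5.08 CPM in sham and 3.71 to 6.90 in SAH 1d. In SAH 7d they were 2.91 to 5.52, with 23.3 in SAH 7d-5. Of 5 tested platelet markers, 1 was called higher at SAH 1d. Their part in the Tbxas1 result was not tested.

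The leukotriene genes split. Alox5ap, the FLAP gene, rose from 2.58 to 3.98 CPM in sham to 5.19 to 8.85 in SAH 1d, without overlap. Its log2 fold change was 1.10 (SE 0.16, adjusted p = 0.000672), and 1.00 (adjusted p = 0.000347) without SAH 1d-3. In SAH 7d it ran from 3.22 over a median of 6.41 to 21.8 CPM, and 5 of 6 rats exceeded every sham rat. Alox5, the lipoxygenase that FLAP assists, had 2.38 to 6.40 CPM in sham and 1.65 to 5.13 in SAH 1d. Its log2 fold change of -0.31 (SE 0.31, adjusted p = 0.477) was within the spread between rats. The ratio of Alox5ap to Alox5 was 1.25 to 2.85 in sham, 3.09 to 12.8 in SAH 1d and 2.27 to 9.87 in SAH 7d. Thus all SAH 1d rats had a higher ratio than all sham rats.

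Ltc4s was the member that fell. In sham the lowest rat had 1.17 CPM, the median was 3.03 and the highest rat had 4.83. In SAH 1d the corresponding values were 0.254, 0.834 and 2.34 CPM, and 5 of 6 rats lay below every sham rat. The exception was SAH 1d-6, which also had the largest choroid plexus marker sum of the group, 1088 CPM. SAH 1d-4, with the next largest sum of 755 CPM, had 0.823 CPM of Ltc4s, within the 0.254 to 0.908 CPM of the other 4 rats, whose sums were 26.5 to 58.6 CPM. The part of choroid plexus tissue in the Ltc4s values was not tested. The SAH 1d group was 3.05-fold lower than sham, with a log2 fold change of -1.61 (SE 0.44, adjusted p = 0.0185). Leaving out SAH 1d-3, the lowest library with 10 counts of this gene, gave -1.40 (adjusted p = 0.0156). In SAH 7d the median was 2.99 CPM, and 1.78 CPM without SAH 7d-5. No SAH 7d rat lay near 2.99, since the values were 1.42, 1.60, 1.78, 4.20, 4.73 and 9.17 CPM. The ratio of Ltc4s to Alox5ap fell in every SAH 1d rat below the whole sham range, 0.0518 to 0.646 against 0.872 to 2.77. In SAH 7d it was 0.505 to 1.22 with a median of 0.833.

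**Figure D2:**
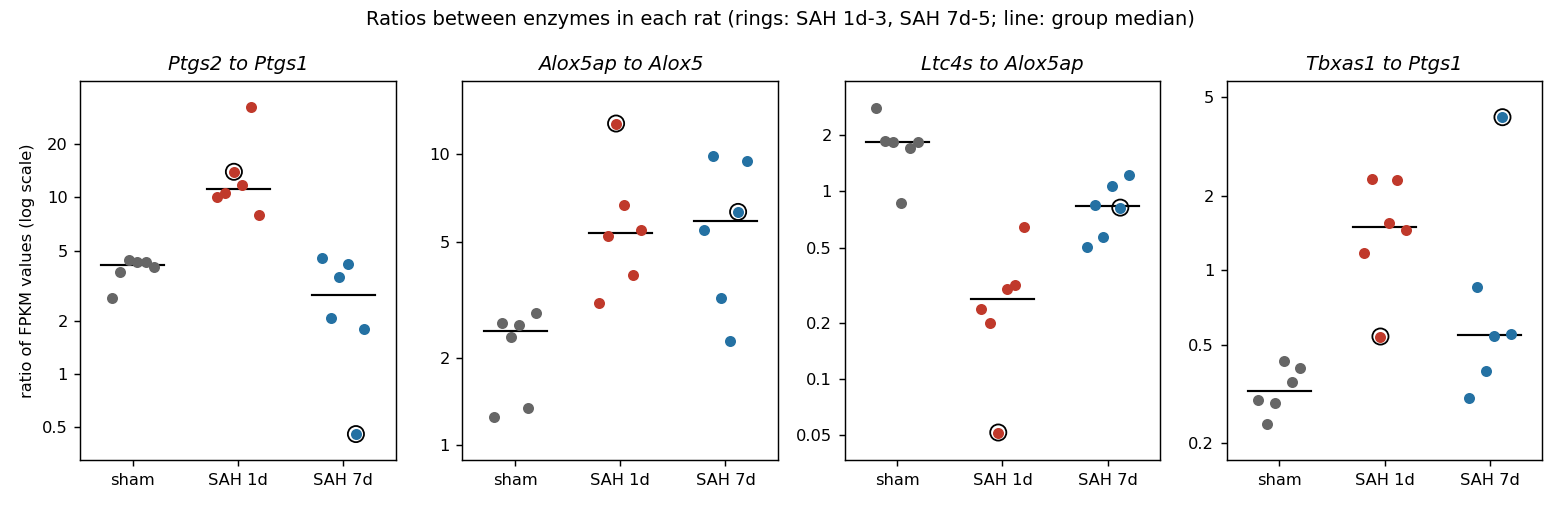
Ratios of FPKM values between pairs of enzymes, 1 point per rat on a log axis, with group medians as lines and rings on the libraries that stood apart. At SAH 1d, Ptgs2 to Ptgs1, Alox5ap to Alox5 and Tbxas1 to Ptgs1 lie above the sham range and Ltc4s to Alox5ap lies below it. The median of Tbxas1 to Ptgs1 is 0.327 in sham, 1.502 in SAH 1d and 0.547 in SAH 7d.

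Marker lists moved at SAH 1d as well. Of 8 tested microglial markers, 2 were called lower, with a median log2 fold change of -0.34 and a summed CPM of 324 to 395 with a median of 375 against 295 to 522 with a median of 328 in sham. Without SAH 1d-3, 3 were called higher and 3 lower. P2ry12, a purinergic receptor of resting microglia and 1 of the 2 called over all 12 rats, fell by 1.19 (SE 0.35, adjusted p = 0.0251). The list with the largest median difference was that of the choroid plexus, at 3.36, with 4 of its 6 markers called higher, and at 3.58 with all 6 called without SAH 1d-3. Its sums were 6.35 to 72.5 CPM in sham and 26.5 to 1088 in SAH 1d. Of 5 tested neutrophil markers, 4 were called higher with a median of 2.51, and 3 without SAH 1d-3, with sums of 8.03 to 12.6 CPM in sham and 29.8 to 184 in SAH 1d. Of 7 monocyte and macrophage markers, 2 were called higher. Of 6 neuronal markers, 5 were called lower. Mast cells are a classical source of Ltc4s, and of their 9 markers 2 passed the filter. Hdc, which encodes the enzyme that makes histamine, rose by 1.69 (SE 0.52, adjusted p = 0.0319), and Kit was not called at -0.17 (adjusted p = 0.338). Both were chosen after their values were seen. Cma1, Mcpt2 and Fcer1a were at 0 in every sham library, and the sums were 38.6 to 65.7 CPM in sham and 40.2 to 54.2 in SAH 1d. These sums did not rise as Hdc did, so Hdc made up little of them. The other markers failed the filter on low counts, so the sums were mostly Kit. With Kit near the level of the sums, a mean log2 CPM of 1.59 for the 2 tested markers in sham leaves Hdc with few reads. The part of these cells in the changes of the 10 genes was not tested.

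The levels of the 10 genes were compared by FPKM. In sham, Ptges3 was highest with a median of 121.0, followed by Ptges2 with 17.5 and Ptgs2 with 10.3, and the ranges of these 3 did not overlap with that of the next gene. The others followed as Ltc4s with 5.61, Alox5ap with 2.95, Ptgs1 with 2.56, Pla2g4a with 1.94, Alox5 with 1.39, Tbxas1 with 0.925 and Ptges with 0.467. Each of these overlapped its neighbour in the order. At SAH 1d, Ptgs2 with a median of 21.9 stood beside Ptges2 with 17.8, and their ranges overlapped. Ptges moved from the last place in sham to the seventh with 3.47, and Ltc4s from the fourth to the ninth with 1.60. At SAH 7d, Ptges was again last with 0.800, and below Ptges3 each range overlapped the next.

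Between SAH 7d and sham, edgeR called 0 of the 10 genes and 0 of the 18444 tested genes, 0.00%. At an unadjusted p under 0.05 there were 5 of the 10, Pla2g4a, Ptgs1, Ptges, Tbxas1 and Alox5ap, all with higher values, beside 15.4% of all genes. The Wald test of DESeq2 called Pla2g4a and Alox5ap among 459 genes, 2.49% of those tested. The largest difference was that of Tbxas1, with a log2 fold change of 3.29 (SE 0.92, adjusted p = 0.214), and without SAH 7d-5 it was 1.35 (SE 0.37, adjusted p = 0.155). Alox5ap had 1.51 (SE 0.40, adjusted p = 0.214) with that library and 1.02 without it. Pla2g4a had 1.59 (SE 0.47, adjusted p = 0.214) and 0.89, and Ptges had 1.73 (SE 0.70, adjusted p = 0.285) and 0.43. Ptgs2 stood at 0.01 (SE 0.20, adjusted p = 0.978). The cysteinyl leukotriene synthase gene Ltc4s had 0.35 (SE 0.48, adjusted p = 0.687), and its difference turned negative, -0.11, without SAH 7d-5.

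SAH 7d-5 was the highest of its group for Pla2g4a, Ptgs1, Ptges, Tbxas1, Ltc4s, Alox5 and Alox5ap and the lowest for Ptgs2, Ptges2 and Ptges3. Its microglial marker sum was 2707 CPM against 348 to 1127 in the other SAH 7d rats, and its meningeal fibroblast sum was 3925 against 191 to 343. Its monocyte and macrophage sum was 295, where the others had 63.2 to 94.1, and its neutrophil sum was 241, where the others had 7.26 to 28.3. SAH 7d-2, next in the microglial sum, was also next for Pla2g4a, Ptgs1, Ptges, Tbxas1, Ltc4s and Alox5ap. Whether these cells account for the values was not tested.

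From SAH 1d to SAH 7d, Ptgs2 and Ptges3 came down without overlap between the groups, as did 2.11% of all genes (3.05% in either direction), but edgeR called 0 of the 10 genes, where 1.37% of all genes were called. At an unadjusted p under 0.05 there were 5 of the 10, Ptgs1, Ptgs2, Ptges, Ptges3 and Ltc4s, beside 14.7% of all genes, and DESeq2 called Ptgs2 and Ltc4s beside 5.49%. Ptgs2 differed by -1.79 (SE 0.44, adjusted p = 0.0678) and Ptges3 by -0.39 (SE 0.12, adjusted p = 0.141). Ptges differed by -2.22 (SE 0.92, adjusted p = 0.281). Ltc4s differed by 1.963 (SE 0.57, adjusted p = 0.119), and the groups overlapped, with 3 of 6 SAH 7d rats above every SAH 1d rat. Ptgs1 differed by 0.94 (SE 0.42, adjusted p = 0.326).

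These calls depended on the libraries that stood apart. Without SAH 7d-5, Ptgs2 fell by 1.64 (adjusted p = 0.0370) and Ptges fell by 3.55 (adjusted p = 0.0231) on the log2 scale. With both libraries that stood apart left out, 4 of the 10 were called beside 13.6% of all genes. Ptgs2 then fell by 1.13 (SE 0.27, adjusted p = 0.0178), Ptges fell by 2.18 (SE 0.33, adjusted p = 0.00188), Ptges3 fell by 0.25 (SE 0.07, adjusted p = 0.0328) and Ptgs1 rose by 1.10 (SE 0.22, adjusted p = 0.00780). Pla2g4a, at -0.52 (adjusted p = 0.150), and Alox5ap, at 0.00 (adjusted p = 0.998), were not called. The SAH 1d and SAH 7d comparisons with sham share the sham rats, and those between SAH groups share the SAH rats with them, so the 3 sets of values are not independent.

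**Figure D3:**
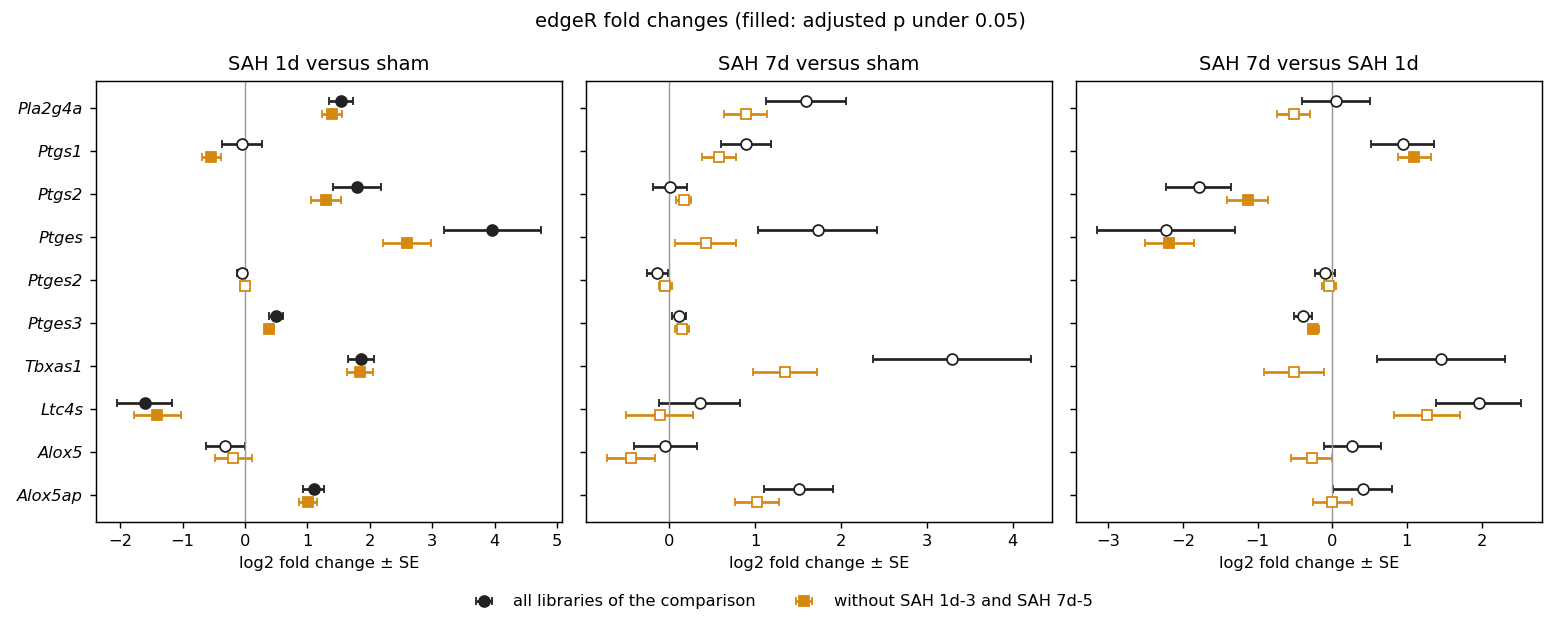
Log2 fold changes of the 10 genes from edgeR in the 3 comparisons, with bars of 1 SE. Black circles use all 12 libraries and orange squares leave out the libraries that stood apart (SAH 1d-3, SAH 7d-5), filled where the adjusted p is under 0.05. At SAH 1d versus sham 7 circles and 8 squares are filled, at SAH 7d versus sham none is, and at SAH 7d versus SAH 1d only the squares of Ptgs1, Ptgs2, Ptges and Ptges3 are.

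The wider eicosanoid pathway was read from 6 lists with 74 genes, of which 67 were in the table and 50 were tested. Between SAH 1d and sham, 7 were called higher and 4 lower, together 22% of the 50 beside 25.4% of all genes. DEGs numbered 5 of the 50, beside 6.64% of all genes. The median log2 fold change of the 50 was 0.08. Without SAH 1d-3 there were 6 higher and 6 lower, in a fit whose share of all genes is not given here. At SAH 7d versus sham edgeR called 0 of the 50, beside 0.00% of all genes. At an unadjusted p under 0.05 there were 13 of the 50, beside 15.4% of all genes, and DESeq2 called 1, beside 2.49%. At SAH 7d versus SAH 1d edgeR called 0 of the 50, beside 1.37% of all genes. At an unadjusted p under 0.05 there were 12 of the 50, beside 14.7% of all genes. DESeq2 called 3 of the 50, beside 5.49% of all genes, and limma voom called 6, beside 2718 of the 18444 genes.

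Among 8 prostanoid receptors tested, 2 were called higher at SAH 1d. Ptgir, the prostacyclin receptor, ran from 0.138 to 0.379 CPM in sham and from 0.875 to 6.34 in SAH 1d. It rose by 3.06 (SE 0.55, adjusted p = 0.00218), and by 2.29 without SAH 1d-3. Ptger2, a prostaglandin E2 receptor that raises cyclic AMP, ran from 0.330 to 0.947 CPM in sham and from 1.11 to 5.12 in SAH 1d. It rose by 1.54 (SE 0.43, adjusted p = 0.0204), and by 0.97 without SAH 1d-3. Neither receptor overlapped between the groups. The remaining 6, which include the thromboxane receptor Tbxa2r at 0.27 (SE 0.24, adjusted p = 0.423), were not called. Of 2 leukotriene receptors tested, neither was called, and Cysltr1, which binds cysteinyl leukotrienes, stood at -0.62 (SE 0.40, adjusted p = 0.276).

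Among 16 other phospholipases and genes of arachidonate release, 1 was called in each direction. Pla2g7, which encodes platelet-activating factor acetylhydrolase, rose by 0.55 (SE 0.13, adjusted p = 0.00906), and Pla2g2c, a secreted phospholipase, fell by 0.74 (SE 0.22, adjusted p = 0.0268). Of 6 tested genes listed as other prostanoid synthases, which include carbonyl reductases, Cbr4, a carbonyl reductase, alone was called and fell by 0.68 (SE 0.17, adjusted p = 0.0128). Of 7 other lipoxygenase and leukotriene enzymes, 2 rose and 1 fell. Lta4h, whose enzyme makes leukotriene B4 from the intermediate that Ltc4s also uses, rose by 0.33 (SE 0.11, adjusted p = 0.0394). Mgst3, a microsomal glutathione transferase that can also make leukotriene C4, fell by 0.63 (SE 0.09, adjusted p = 0.000666), from 64.7 to 86.8 CPM in sham to 44.2 to 59.8 in SAH 1d, without overlap. Mgst3 and Ltc4s were both lower, whereas Mgst2, of the same list, stood at 0.99 (SE 0.57, adjusted p = 0.219) and was not called. Aloxe3, an epidermal-type lipoxygenase, rose by 1.959 (SE 0.66, adjusted p = 0.0434) through SAH 1d-3 with 37.6 CPM, and was at 0.55 (adjusted p = 0.0670) without it.

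Of 11 genes of eicosanoid inactivation and transport, 2 rose and 1 fell. The prostaglandin uptake carrier Slco2a1 rose by 1.52 (SE 0.48, adjusted p = 0.0326) and was not called without SAH 1d-3 (0.99, adjusted p = 0.0600). Abcc4, which exports prostaglandin E2, rose by 0.49 (SE 0.14, adjusted p = 0.0229). Cyp4f4, a cytochrome of the family that hydroxylates leukotrienes, fell by 1.02 (SE 0.28, adjusted p = 0.0189), from 3.70 to 8.37 CPM in sham to 1.09 to 3.51 in SAH 1d, without overlap.

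**Figure D4:**
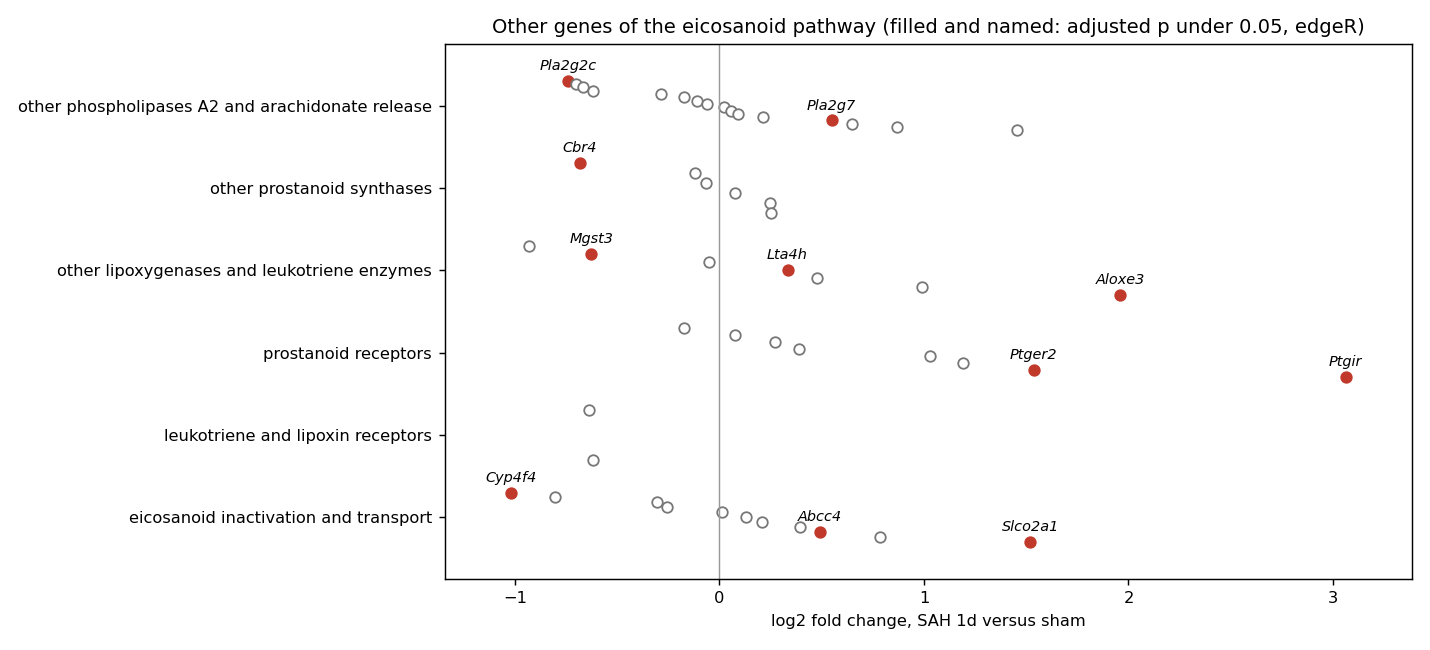
Log2 fold changes between SAH 1d and sham of the 50 tested genes of 6 eicosanoid pathway lists, 1 row of points per list. Filled red points with names have an adjusted p under 0.05, 7 to the right of 0 and 4 to the left, with Ptgir farthest right at 3.06 and Cyp4f4 farthest left at -1.02.

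Genes whose levels ran most like those of each member over the 18 libraries were taken from 14033 tested genes with a symbol, by Spearman correlation of log2 CPM. The libraries share their groups, and the libraries that stood apart are extreme for many genes, so these values describe the series and carry no test. Ptges ran most like Il4r, the interleukin-4 receptor, at 0.992, then the adhesion receptor Cd44 at 0.965 and the transcription factor Myc at 0.957. Pla2g4a ran most like the peroxidase gene Gpx1 and the ribosomal protein gene Rpl11, both at 0.975, and the lysosomal protease gene Ctsz at 0.973. Alox5ap ran with Atp10d at 0.969, Ms4a6a at 0.967 and the leukocyte adaptor gene Lcp2 at 0.959. Tbxas1 ran with Fxyd5 and Jpt2 at 0.926 and Plin3 at 0.917. Ltc4s ran most like P2ry12, the microglial receptor named above, at 0.907, and with Il4i1 and Fundc1 at 0.903. Ptgs2 was nearest to Agpat4 and the heat shock gene Dnajb1, both at 0.905, and Bcar1 at 0.899. Ptges3 was nearest to Ppid, another Hsp90 co-chaperone gene, at 0.926, followed by Mterf3 at 0.909 and Hnrnph1 at 0.870. Ptgs1 was nearest to Srsf3 at 0.897, C5ar2 at 0.876 and Lum at 0.874. Ptges2 was nearest to the respiratory chain genes Ndufa12 at 0.870 and Cox4i1 at 0.843 and to Naxd at 0.839. Alox5 had the weakest partners, Tmem164 at 0.806, Col5a3 at 0.750 and Plxnd1 at 0.734.

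Among the members themselves, Pla2g4a and Alox5ap ran closest at 0.922, followed by Pla2g4a with Tbxas1 at 0.886 and with Ptges at 0.864. Ptgs2 ran opposite to Ltc4s at -0.78, and at -0.41 with Ptgs1. The neighbouring genes Pla2g4a and Ptgs2 stood at 0.397.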

How the data were processed

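RNA-seq was made from cerebral cortex of 18 rats, 6 per group, from total RNA with an NEBNext Ultra kit. The deposited counts are unnormalized whole numbers, and the authors' deposited FPKM values are fragments scaled by gene length and depth. Reads with adapters or low quality had been removed. The submitters' processing notes name fastp, HISAT2, DESeq2 1.16.1 and a mouse build, whereas the identifiers are rat genes. The counting program and any use of strand are, for this series, not given in the sources used here, so overlapping genes cannot be separated. Replicates were kept separate. Groups and library numbers follow the column names, which equal the deposited descriptions; the titles of SAH libraries are other codes. Depth was 27270026 to 38271014 counts per library. Whether both reads of a pair were counted is unknown, so errors rest on the spread between rats. No 2 libraries of a group agreed within sampling noise.

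The 10 genes were matched by symbol. The study's methods give thresholds but do not name the test, and the notes list DESeq2 without its role. The main test was edgeR 4.0.16 in R 4.3.3, with DESeq2 as an alternative. The edgeR fit used filterByExpr on all 18 libraries, TMM and the two-sided quasi-likelihood F test on the 12 libraries of a comparison, and Benjamini-Hochberg adjustment over 18444 genes, of which 3100 are loci outside the annotation. Members, pathway lists (74 genes) and 14 marker lists (100 genes) were chosen with earlier results of these data known. Named were the members, every pathway gene called and, for each member, the 3 genes with the highest Spearman correlation. The receptors Tbxa2r and Cysltr1 and the gene Mgst2 were named after their values were seen. The tests were also run on simulated data with known changes. Alternatives were DESeq2 1.42.0 (size factors, Wald test), limma 3.58.1 (voom with quality weights; log2 FPKM with pseudocounts of 1 and 0.1), other filters, 1 fit of all libraries, a replicate block and left-out libraries. The DESeq2 tests without SAH 7d-5 or SAH 1d-3 were chosen after seeing the data. Figures were drawn with matplotlib 3.10.9. Promoters came from RefSeq, and protein sequences were not used here.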

Additional observations from a re-analysis of the deposited data

Results flagged for a closer look

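The 30 sets of CPM values of the 10 genes in groups of 6 rats were searched for a rat standing apart. In 11 sets the gap from 1 rat to the nearest of the others exceeded Dixon's critical share of the group's range. Chance flags about 1 in 20 sets that are independent and normally distributed. These sets are 10 genes in the same rats on the CPM scale, so 11 of 30 cannot be set against that rate. SAH 1d-3 was that rat for Pla2g4a (25.01 CPM, next 18.01), Ptgs1 (18.9, next 7.42), Ptges (47.8, next 8.42) and Ptges3 (418.3, next 301.6). SAH 7d-5 was that rat for Pla2g4a (51.5 CPM, next 16.7), Ptges (10.01, next 1.37), Tbxas1 (87.2, next 9.98) and Alox5 (8.11, next 3.58). Outside these libraries, Ltc4s stood apart in SAH 1d-6 (2.34 CPM, next 0.908), Ptgs1 in sham-1 (10.7, next 8.09) and Ptgs2 in sham-3 (54.3, next 48.4). Thus 8 of the 11 fell in the pair of libraries that also correlated least with their groups. For Ptgs2 at SAH 1d, 410.2 CPM in SAH 1d-3 was not set apart in this sense, since SAH 1d-5 had 237.8.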

How the results depend on the processing

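Between SAH 1d and sham the number of the 10 genes called was 6 to 8 under every alternative, and 7 to 8 with 1 library left out. The share of all genes called also moved between alternatives, from 25.4% in the main fit, so these counts have no single background. Pla2g4a, Ptgs2, Ptges, Ptges3, Ltc4s and Alox5ap were called under each, with adjusted p-values up to 0.0475, and Tbxas1 under each but the fit of all 18 libraries (adjusted p = 0.1003). Ptgs1 was called lower by voom (-0.42) and without SAH 1d-3 (-0.54, with DESeq2 -0.55), and with 1 library left out it ranged from -0.54 to 0.0625. Over all alternatives other than single left-out libraries, those that called it included, its adjusted p ran from 0.00359 to 0.991.

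Between SAH 7d and sham, DESeq2 called 2, and 3 without SAH 7d-5 (Pla2g4a, Tbxas1, Alox5ap). Between SAH 7d and SAH 1d, where edgeR called 0, the count was 2 with DESeq2, 4 with voom, 2 in the fit of all libraries, 4 without both libraries that stood apart, 3 with DESeq2 without SAH 7d-5 and 4 with DESeq2 without SAH 1d-3, and 0 to 2 with 1 library left out. Over all genes, calls at SAH 7d versus SAH 1d went from 252 to 1012 with DESeq2, 2718 with voom, 779 in the fit of all libraries, 406 and 403 on FPKM with pseudocounts of 1 and 0.1, 474 without a filter on FPKM, 1545 without SAH 7d-5, 2512 without both, 29 with the replicate block, 2742 with DESeq2 without SAH 7d-5, and 1087 with DESeq2 without SAH 1d-3. At SAH 7d versus sham they were 459 with DESeq2 and 542 without SAH 7d-5 also, 9 in the fit of all libraries, 2 with voom and 1 without a filter on FPKM. At SAH 1d versus sham the fit of all libraries gave 2462 in place of 4684.

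Uncalled differences changed sign as follows. At SAH 1d versus sham, Alox5 was at 0.0480 with voom, and Ptges2 at 0.0619 and 0.0648 on FPKM with pseudocounts of 1 and 0.1 and at 0.0619 with no filter. At SAH 7d versus sham, Ltc4s was at -0.0570 with voom, -0.11 without both and -0.12 with DESeq2 without SAH 7d-5 (leave-one-out -0.11 to 0.55). Ptgs2 was there at -0.0551 with the replicate block, and at -0.00802, -0.0166 and -0.00802 on FPKM with pseudocounts of 1, 0.1 and no filter (-0.0650 to 0.17), and Alox5 ranged from -0.45 to 0.18. At SAH 7d versus SAH 1d, Pla2g4a was at -0.60 with voom, -0.36 with the block, -0.29, -0.38 and -0.29 on FPKM in the same order, -0.52 without both and -0.66 with DESeq2 without SAH 7d-5 (-0.67 to 0.23). Tbxas1 was there at -0.67 with voom, -0.15 with the block, -0.0328 with a pseudocount of 0.1, -0.51 without both and -0.52 with DESeq2 without SAH 7d-5 (-0.53 to 1.69), Alox5 at -0.32 with voom, -0.27 without both and -0.13 with DESeq2 without SAH 7d-5 (-0.14 to 0.49), and Alox5ap at -0.16 with voom and -0.0859 with DESeq2 without SAH 7d-5 (-0.0956 to 0.58). The causes were not tested. Over the alternatives other than single left-out libraries, adjusted p-values ran from 0.0206 to 0.604 for Tbxas1 and 0.0240 to 0.584 for Pla2g4a at SAH 7d versus sham. At SAH 7d versus SAH 1d they ran from 0.000965 to 0.273 for Ptgs2, 0.000180 to 0.594 for Ptges, 0.0192 to 0.344 for Ptges3, 0.00102 to 0.468 for Ptgs1 and 0.0120 to 0.215 for Ltc4s.

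The labels give all groups the numbers 1 to 6. Same-numbered rats did not deviate together (correlations of -0.252 to 0.197 over the comparisons), and at most 1 of 6 correlated best with its own number, so the numbers name rats and pair nothing. With the replicate block 7, 0 and 0 of the 10 were called at SAH 1d versus sham, SAH 7d versus sham and SAH 7d versus SAH 1d. Low counts limit Ptges in sham and Ltc4s at SAH 1d most.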
